A study of Danio rerio with 12 samples.

Results

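The genes described here are the Fgf8 ligand gene fgf8a and 8 genes that respond to or dampen Fgf signalling, namely dusp6, spry1, spry2, spry4, etv4, etv5a, etv5b and il17rd. They were chosen by name, and 8 of these 9 names had a row among the 13680 genes of the deposited expression table. No row carried the name spry1, which is not analysed here. The table holds 12 libraries of whole zebrafish embryos of the AB strain at 24 hours after fertilisation. In 6 libraries the embryos came from eggs fertilised in vitro with sperm of starved males, and in 6 with sperm of fed males; the mothers were fed wild-type females in both groups. A library pooled RNA of 1 to 3 embryos from the same clutch, so levels are averages over all tissues, and fewer cells of a type cannot be told apart from less RNA per cell. The labels give neither the length of the starvation nor the father of each library, and a p-value here reflects how much these libraries vary, which may in part be technical. The comparison asked whether the nutrition of the father leaves a trace in gene expression of the offspring.

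Fibroblast growth factors are secreted ligands that bind receptor tyrosine kinases and switch on the Ras and ERK kinase cascade inside the cell. In the zebrafish embryo fgf8a is a signal of the boundary between midbrain and hindbrain and of the tailbud, among other places. The signal turns on genes for ETS transcription factors of the Pea3 group (here etv4, etv5a and etv5b), which carry the response, and for inhibitors that limit it. The inhibitors act at different steps: Sprouty proteins act on the receptor and Ras part of the cascade, Il17rd (also called Sef) is a membrane protein, and Dusp6 is a phosphatase that switches ERK off. Transcripts of these genes are widely used as a readout of Fgf activity.

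Transcripts were counted by 3' RNA sequencing, which yields tags from the polyadenylated end irrespective of transcript length. A value below is a read count divided by a scaling factor of its library, in which 1 read was worth 0.234 to 0.374. The listed genes took 2950740 to 3934765 reads per library, of which mitochondrial transcripts took 29.4% to 48.4% in offspring of starved fathers and 36.9% to 50.6% in offspring of fed fathers. Of 60 marker genes for brain boundary, tailbud, ear, fin bud, heart, muscle, yolk layer, lens, neurons and the immediate early response, 48 had a row, and none of these was at 0 in all libraries. Some libraries stood apart. Lens markers summed to 28.6 in starved replicate 4, 24.99 in fed replicate 4 and 49.8 in fed replicate 5, and to 120 to 314 in the remaining 9. Immediate early genes, rapid first responders to growth factors and stress, summed to 503 and 127 in starved replicates 2 and 5, and to 5.30 to 35.6 elsewhere.

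The feedback phosphatase gene dusp6 had the highest mean value of the 8 genes and the ligand gene fgf8a the lowest. Over all 12 libraries dusp6 averaged 63.9 ± 16.6, above the mean of 89.0% of listed genes, followed by etv5a at 53.8 ± 8.86 and spry4 at 31.6 ± 6.45 (SD, n = 12). Next came etv5b at 23.6 ± 6.88, etv4 at 21.96 ± 2.56, spry2 at 19.8 ± 5.71, il17rd at 8.47 ± 2.18 and fgf8a at 2.02 ± 1.17 (SD, n = 12). In a two-sided exact sign-flip test over the 12 libraries, with Benjamini-Hochberg adjustment over the 7 pairs of neighbours in this order, 5 steps passed. The order was taken from the same values, so these p-values are no independent evidence for it. The steps from etv5b to etv4 (adjusted p = 0.690, exact sign-flip test) and from etv4 to spry2 (adjusted p = 0.174) did not. The step from dusp6 to etv5a was small, 0.22 ± 0.29 on the log2 scale (SD, n = 12, exact sign-flip adjusted p = 0.0383), with dusp6 higher in 10 of 12 libraries. The step from spry4 to etv5b had the same adjusted p, with spry4 higher in 8 of 12. These levels are scaled tag counts per gene, and how well each 3' end is captured was not measured.

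Within both gene families the genes described here took unequal shares of the tags. Of the tags of etv4, etv5a and etv5b together, etv5a took 55.0 ± 4.78% in offspring of starved fathers and 53.3 ± 3.76% in offspring of fed fathers, and etv4 took 21.1 ± 3.68% and 23.8 ± 2.99% in the same order of groups (SD, n = 6 each). The gene etv1, with a mean value of 6.21 over all libraries, was not part of this total. Of the tags of both Sprouty genes, spry4 took 63.7 ± 10.7% in offspring of starved fathers and 59.9 ± 3.24% in offspring of fed fathers (SD, n = 6 each). The spry4 share ran from 45.3% to 76.6% over the 12 libraries, so spry4 had the larger share of the spry4 and spry2 tags in most but not all of them.

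Depth differed widely between the genes. Per library dusp6 rested on 158 to 325 reads, etv5a on 148 to 316, spry4 on 69 to 150, etv5b on 40 to 111, etv4 on 52 to 94 and spry2 on 37 to 117. The membrane inhibitor gene il17rd had 16 to 39 reads and fgf8a only 2 to 13. The coefficient of variation over the 12 libraries was 11.7% for etv4, where counting error alone gives 11.6%, so its spread was no wider than the depth allows. It was 26.0% for dusp6, where counting gives 6.88%, and 29.1% for etv5b, where counting gives 11.3%. For fgf8a it was 57.6%, against 38.6% from counting. These counting figures treat reads as independent molecules, which polymerase chain reaction copies are not.

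No difference between offspring of starved and fed fathers passed the test for any of the 8 genes. The differences were tested with limma on log2(value + 1) over all 13680 genes, a scale that understates changes of low genes. At an adjusted p below 0.05, 0 of 8 were called, and so were 0 of all listed genes (0%). With the replicate number as a block in the fit, 39 of all listed genes and 0 of the 8 were called. At an unadjusted p below 0.05 there were 0 of the 8, against 5.54% of all listed genes, and edgeR's quasi-likelihood test on the recovered reads also had 0 of the 8, against 4.74%. In the authors' deposited table the FDR of the 8 genes ran from 0.776 to 0.998, where 0.768% of all listed genes have an FDR below 0.05. The mean log2 value was higher in offspring of starved fathers for 4 genes and lower for 4, with a median log2 difference of -0.05, against -0.01 over all listed genes. The groups overlapped for each of the 8, while 0.234% of all listed genes had groups without overlap.

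**Figure D1:**
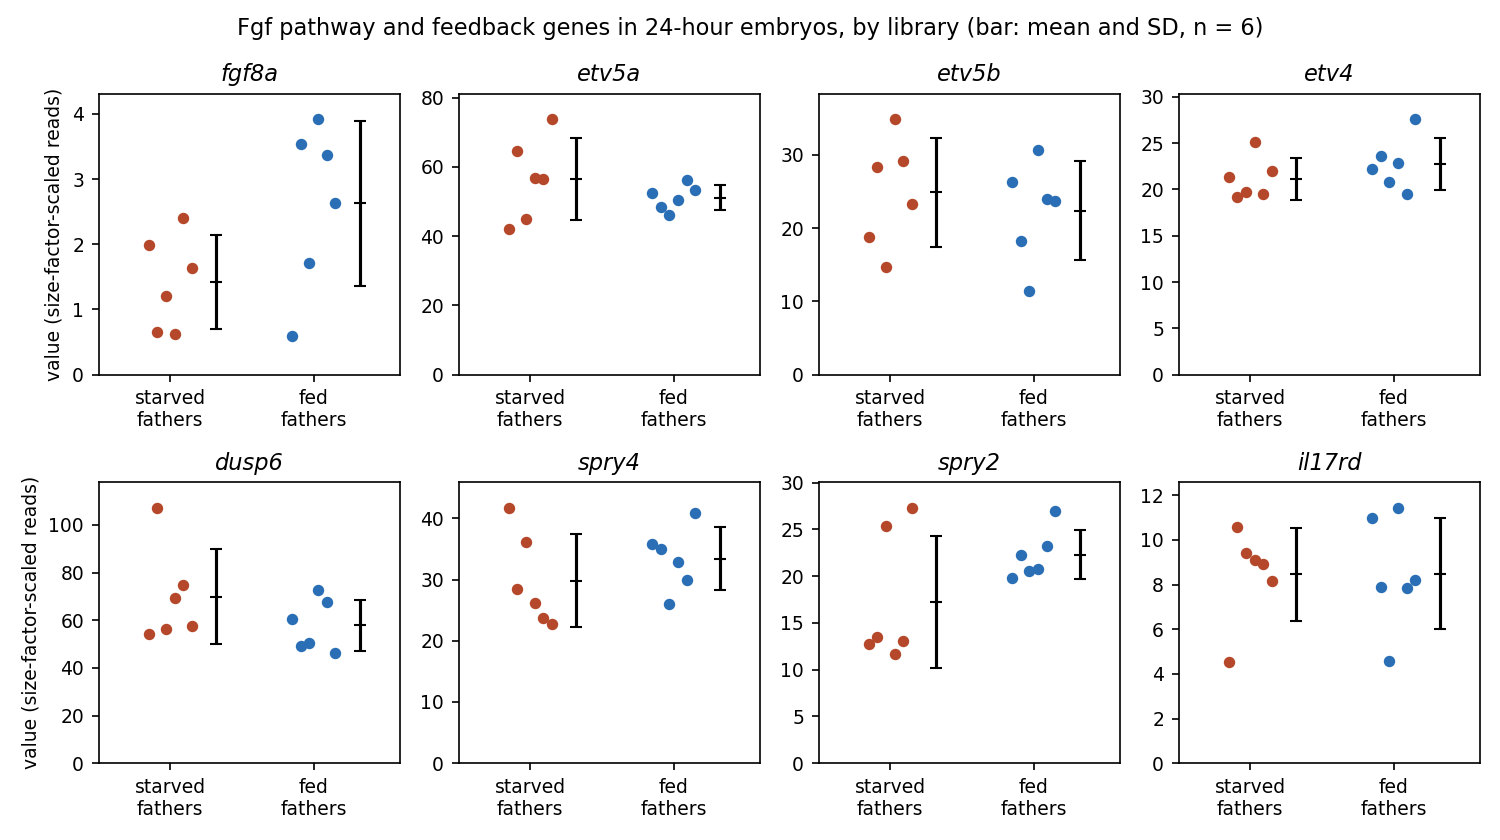
Value of each of the 8 genes (vertical axis, scaled reads, from 0) in each library of starved fathers (left) and fed fathers (right), with mean and SD beside the points (n = 6 each). The groups overlap in every panel, and spry2 in offspring of starved fathers shows 4 libraries from 11.6 to 13.5 and 2 at 25.3 and 27.3.

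The ligand gene fgf8a (chromosome 13, bases 28495419 to 28501985, GRCz11) was near the limit of detection. Its values in offspring of starved fathers ran from 0.63 over a median of 1.43 to 2.40, and in offspring of fed fathers from 0.59 over a median of 3.01 to 3.92. Together the starved group held 30 reads of it and the fed group 52. Each of the 6 starved-father values was under the fed mean of 2.63, and 4 libraries of fed fathers lay above the highest library of starved fathers. The lowest library of all, however, was fed replicate 1. The log2 difference was -0.54 ± 0.37 (SE, limma adjusted p = 0.908), with a 95% interval from -1.32 to 0.23, so neither a fall by more than a factor of 2 nor a slight rise is outside it. On reads, edgeR gave -0.87 (adjusted p = 0.999), more than 1.5 times the log2 difference on the scale with the added 1.

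Among the Pea3-group genes, etv5a had the largest level and a slightly higher mean in offspring of starved fathers. The gene (chromosome 9, bases 22631672 to 22649297) ran from 42.0 over a median of 56.8 to 73.8 in offspring of starved fathers, and from 46.0 over a median of 51.4 to 56.2 in offspring of fed fathers. In the starved group 4 libraries lay above the whole fed range and the other 2 below it, so they lay on both sides of it. The log2 difference was 0.12 ± 0.17 (SE, limma adjusted p = 0.960, 95% interval -0.23 to 0.47). Single libraries moved it, to 0.04 without starved replicate 6, 0.08 without starved replicate 2 and 0.20 without starved replicate 1.

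The steadiest gene, etv4 (chromosome 12, bases 27536095 to 27568694), ran from 19.2 over 20.5 to 25.2 in offspring of starved fathers and from 19.5 over 22.6 to 27.6 in offspring of fed fathers (lowest, median, highest). Its log2 difference was -0.10 ± 0.19 (SE, limma adjusted p = 0.969), with a 95% interval from -0.48 to 0.28, and it was -0.05 without fed replicate 6. The third gene, etv5b (chromosome 6, bases 14030903 to 14040161), ran from 14.7 over 25.9 to 34.9 in offspring of starved fathers and from 11.4 over 23.9 to 30.7 in offspring of fed fathers. The 2 ranges of etv5b nearly coincide. Its log2 difference was 0.15 ± 0.25 (SE, limma adjusted p = 0.961, 95% interval -0.36 to 0.66), and it turned to -0.02 without fed replicate 3, the library with the lowest value.

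The ERK phosphatase gene dusp6 (chromosome 25, bases 18326298 to 18330503) stood out through single libraries. Its values ran from 54.3 over a median of 63.6 to 107 in offspring of starved fathers and from 46.4 over a median of 55.5 to 72.6 in offspring of fed fathers. The highest values of all 12 libraries were 107 in starved replicate 2 and 74.8 in starved replicate 5, the only ones above the fed range. The log2 difference was 0.25 ± 0.18 (SE, limma adjusted p = 0.916), with a 95% interval from -0.13 to 0.63, and it was 0.12 without starved replicate 2 alone.

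Starved replicates 2 and 5, highest in dusp6, also had the highest sums of the immediate early markers. In starved replicate 5 dusp6, at 74.8, was barely above the 72.6 of fed replicate 4, so the match rests mainly on starved replicate 2. The immediate early gene fosab was at 356 and 67.6 in starved replicates 2 and 5, and between 0.29 and 6.85 in the remaining 10. A second one, ier2a, was at 123 and 47.0 in those libraries, against 3.13 to 28.9 elsewhere. Without both libraries, a choice added after seeing the data, the dusp6 log2 difference was 0.05 (limma, unadjusted p = 0.784). Without fed replicates 4 and 5, which had the highest dusp6 values of the fed group, it was 0.40 (limma, unadjusted p = 0.0518). The dusp6 difference thus moved by more than 1.5 times with either choice of libraries. Both shifts follow from the dusp6 values of the libraries left out, whatever their immediate early transcripts. The part of the immediate early response in the dusp6 difference was not tested.

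**Figure D2:**
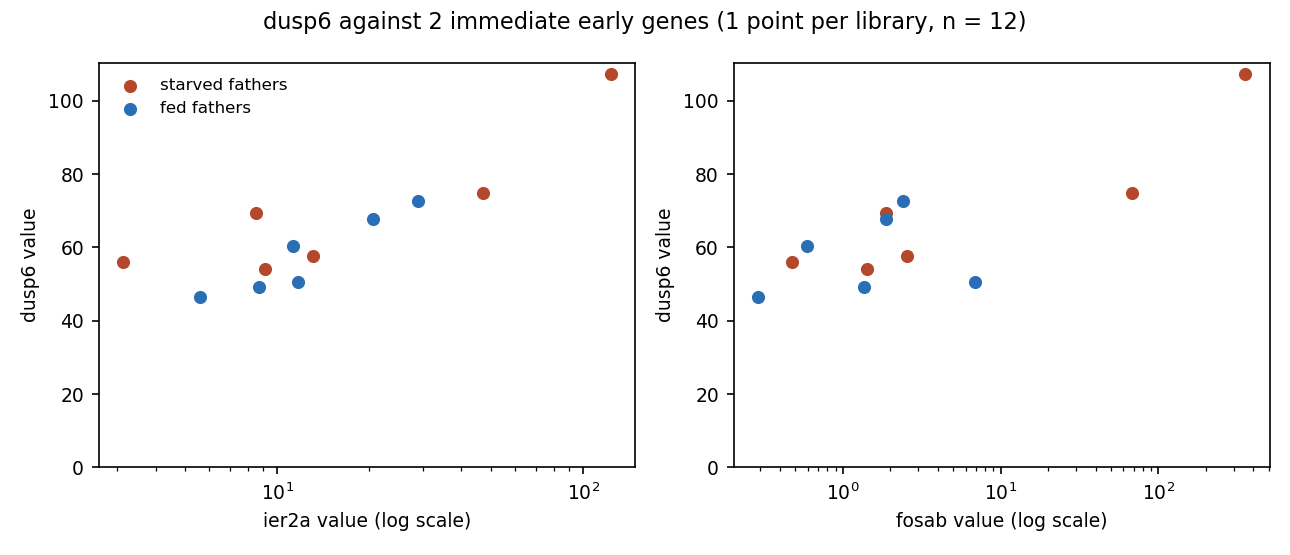
Value of dusp6 (vertical axis, from 0) against ier2a (left) and fosab (right), both on log axes, with 1 point per library (n = 12, 6 of starved and 6 of fed fathers). Starved replicate 2, at a dusp6 value of 107, and starved replicate 5, at 74.8, are highest on both axes of each panel.

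The Sprouty gene spry2 (chromosome 1, bases 5273481 to 5277583) had the smallest p of the 8. Its values were 12.8, 13.5, 25.3, 11.6, 13.0 and 27.3 in starved replicates 1 to 6, against 19.9, 22.3, 20.6, 20.8, 23.2 and 27.0 in fed replicates 1 to 6. Thus 4 libraries of starved fathers lay below the whole fed range, while replicates 3 and 6 were among the highest of the series. The SD was 7.07 in offspring of starved fathers and 2.62 in offspring of fed fathers (n = 6 each). The log2 difference was -0.42 ± 0.23 (SE, limma unadjusted p = 0.0833, adjusted p = 0.885), with a 95% interval from -0.91 to 0.06. Mean log2 values were lower in offspring of starved fathers within 4 of the 5 description codes, as they were for fgf8a and etv4. In starved replicates 3 and 6 the mitochondrial share of reads was 29.4% and 37.8%, against 40.8% to 48.4% in the other 4 libraries of that group. In the fed group the highest spry2 value, 27.0, went with a share of 48.1%. With libraries scaled by their reads outside the mitochondrial transcripts, the spry2 log2 difference was again -0.42 (limma unadjusted p = 0.0964). The part of the mitochondrial share in the spry2 values of single libraries was not tested.

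Its relative spry4 (chromosome 21, bases 44684577 to 44691068) ran from 22.7 over a median of 27.3 to 41.8 in offspring of starved fathers and from 26.0 over a median of 33.9 to 40.8 in offspring of fed fathers. The starved range enclosed the fed range, with 2 libraries below it and 1 above. The log2 difference was -0.18 ± 0.19 (SE, limma adjusted p = 0.949, 95% interval -0.58 to 0.22), and it was 0.02 without the 4 libraries of code 1242. Leaving out a single library gave from -0.28 (without starved replicate 1) to -0.11 (without starved replicate 6). The membrane inhibitor gene il17rd (chromosome 11, bases 42641404 to 42722658) ran from 4.54 over a median of 9.02 to 10.6 in offspring of starved fathers and from 4.57 over a median of 8.05 to 11.5 in offspring of fed fathers. Both groups held a single low library, starved replicate 1 and fed replicate 3. The il17rd log2 difference was 0.01 ± 0.28 (SE, limma adjusted p = 1.00), with a 95% interval from -0.58 to 0.59, and its sign turned under several settings.

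**Figure D3:**
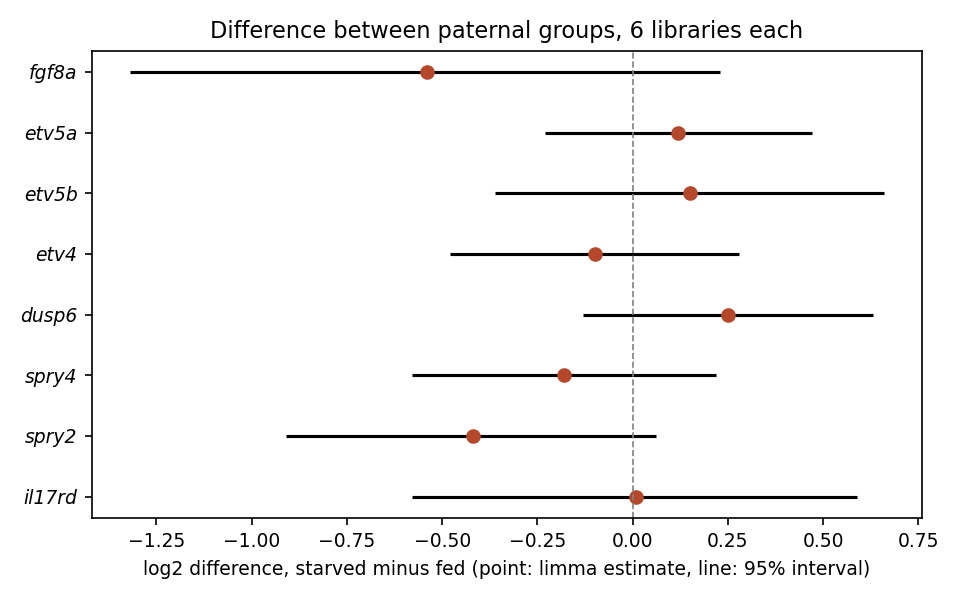
Log2 difference, starved minus fed (horizontal axis), of the 8 genes with the limma estimate (point) and 95% interval (line), n = 6 libraries each. All 8 intervals include 0, from the narrowest for etv5a (-0.23 to 0.47) to the widest for fgf8a (-1.32 to 0.23).

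Each library also carries a description code, 1118, 1203, 1210, 1219 or 1242, and each code occurs in both paternal groups, 1242 with 2 libraries a group. The labels do not say what a code marks. A limma F test of the codes, with the paternal group as a term, called 0 of the 8 genes at an adjusted p below 0.05, where it called 1.12% of all listed genes (153 genes, but 17 without fed replicate 4 and 343 without fed replicate 5). At an unadjusted p below 0.05 there was 1 of 8, etv5b, which is about the share over all listed genes (11.9%). No difference of etv5b between codes passed, and its values are given as a description only. The etv5b gene was highest in code 1219, at 34.9 in the library of starved fathers and 30.7 in that of fed fathers, and lowest in code 1210, at 14.7 and 11.4 in the same order (limma F test, unadjusted p = 0.0209, adjusted p = 0.312). In both groups the order of these 2 codes was the same, and the other 8 libraries lay between them, from 18.2 to 29.2. The other 7 genes had an adjusted p between 0.789 and 0.989 in this F test.

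Sums of markers of embryo structures in these 2 codes, chosen for their etv5b values, are given as a description, with a single library per group in each. In the F test of the codes none of the 4 tailbud genes passed (smallest adjusted p = 0.194, msgn1). Some lens and muscle genes passed, such as cryba4 (adjusted p = 1.46e-05) and tnnt3b (8.72e-06). Others did not, such as lim2.1 (0.465) and ckma (0.143). The sums themselves were not tested. Markers of tailbud and presomitic mesoderm, 4 of 8 with a row, summed to 55.3 and 59.3 in the code 1219 libraries of starved and fed fathers, the highest of all, and to 10.6 and 17.4 in the code 1210 libraries. Fed replicates 1 and 6, at 15.4 and 11.7, were below this last value. Lens markers, 6 of 6 with a row, ran the other way, with 28.6 and 24.99 in code 1219 and 248 and 314 in code 1210, starved before fed. Markers of the midbrain-hindbrain boundary, 3 of 8 with a row, summed to 64.8 and 60.6 in code 1219, the highest in each group. They summed to 22.4 and 45.1 in code 1210, while 5 defining ones such as wnt1 and eng2a had no row. Within the tailbud set msgn1 (15.7 and 27.4) and cdx4 (24.8 and 14.5) were highest of each group in code 1219, while tbxta in fed replicate 4, at 3.61, was the lowest of its group and tbx16 in starved replicate 4, at 5.66, was below starved replicates 2 and 5. Skeletal muscle markers, 8 of 8 with a row, were lowest of each group in code 1219, at 4887 and 3161, and summed to 9106 and 10790 in code 1210. Neuron markers, 4 of 4, summed to 414 and 371 in code 1219 and were highest of each group in code 1210, at 763 and 844. Yolk layer markers, 7 of 7, summed to 8123 and 8724 in code 1219 and to 4467 and 5124 in code 1210. Starved replicates 2 and 5 and fed replicate 2 were lower in their groups, at 2026, 3030 and 4885. The yolk layer sum of fed replicate 5, at 11840, was above both code 1219 sums. Fin bud markers, 3 of 4, were highest of each group in code 1219, at 103 and 91.3. They were lowest of each group in code 1210, at 48.0 and 54.8. Most of the code 1219 sums was sall4, at 93.4 and 80.4. Ear markers, 5 of 6, summed to 207.5 and 191.9 in code 1219 and to 216.2 and 239 in code 1210. Heart markers, 4 of 5, summed to 89.6 and 89.8 in code 1219 and to 95.5 and 80.0 in code 1210. What part any of these sets has in the etv5b values was not tested.

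**Figure D4:**
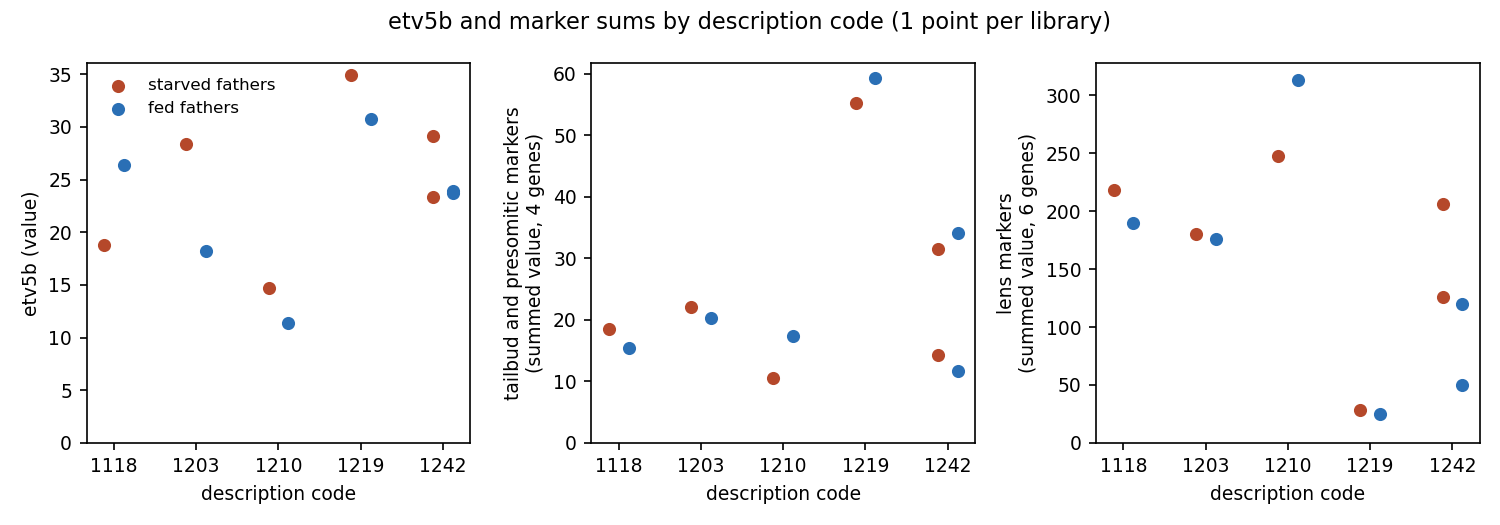
Value of etv5b (left) and summed values of tailbud and presomitic markers (middle) and lens markers (right), all from 0, by description code, with 1 point per library of starved or fed fathers. In code 1219 etv5b (34.9 and 30.7) and the tailbud sum (55.3 and 59.3) were highest and the lens sum (28.6 and 24.99) lowest.

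No pair of the 8 genes varied together from library to library past the threshold of the test. Over the 28 pairs, Pearson correlations of deviations from the group means had a median of 0.02, from -0.63 to 0.69, with 16 positive and 12 negative, and 0 pairs passed a permutation test after Benjamini-Hochberg adjustment over the 28 (3 had an unadjusted p below 0.05). The closest pair was etv5b with il17rd, with r = 0.69 (permutation p = 0.0141, adjusted p = 0.349, n = 12) and Spearman's rho = 0.66 (permutation p = 0.0214, adjusted p = 0.397). Without the 2 libraries farthest from the etv5b median r was 0.80. The pair of dusp6 with etv5b had r = 0.60 (permutation p = 0.0374, adjusted p = 0.349) and rho = 0.64 (permutation p = 0.0283, adjusted p = 0.397), and r = 0.60 without the 2 libraries farthest in dusp6. The lowest pair, spry4 with etv5a, had r = -0.63 (permutation p = 0.0281, adjusted p = 0.349) and rho = -0.45 (permutation p = 0.147, adjusted p = 0.607). Without the 2 libraries farthest in spry4 its r was -0.19, so it rests on those libraries. The pairs etv4 with spry2 and spry4 with spry2 both had r = 0.02, close to no relation. These permutations treat the 12 libraries as independent, while same-numbered libraries of the groups correlated at 0.099 to 0.445 over all genes with sufficient level. The p-values of the pairs do not allow for that.

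Genes outside the 8 with the most similar pattern over the libraries were looked for across the table. Among 8920 genes with a mean value of at least 5, those with deviations most like dusp6 over the 12 libraries were vps52 (r = 0.92), znf207b (0.91) and the immediate early gene ier2a (0.88), while etv5b ranked 498 and il17rd 651 in likeness to dusp6. For spry4 the most alike genes were emc3 (r = 0.88), BX649250.2 (0.86) and prkx (0.84), and etv4, the closest member, ranked 1875. For etv4 they were fat1a (r = 0.93), tbl1xr1a (0.92) and zgc:112234 (0.89), and etv5b, the closest member, ranked 1788. The highest of 8920 correlations over 12 libraries are high by selection, and no test is attached to them.

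Other genes of the pathway were compared between the paternal groups in the same way. Of 101 other genes listed for it, 70 had a row, and limma called 0 of these, with 37 higher and 33 lower in mean log2 value and a median log2 difference of 0.03. At an unadjusted p below 0.05 there were 5 of 70 (7.14%), against 5.54% of all listed genes. Of the 5, 2 had a positive difference, as did 2.11% of all listed genes at that p, and 3 a negative one, as did 3.44%. Ligand genes were sparse, with 9 of 29 listed names present and a median mean value of 3.37. The neural ligand-family gene fgf13a, whose product acts inside cells, was highest among them at 11.4 ± 5.15 in offspring of starved fathers and 13.6 ± 8.55 in offspring of fed fathers (SD, n = 6 each). The ligand gene fgf3, which acts with fgf8a in hindbrain and ear, ran from 2.89 over a median of 7.76 to 12.3 in offspring of starved fathers, against 3.01 over 3.8 to 6.36 in offspring of fed fathers. Its log2 difference of 0.71 ± 0.32 was opposite in sign to that of fgf8a and did not pass (SE, limma unadjusted p = 0.0383, adjusted p = 0.885). The ligand gene fgf1a, with 1 to 34 reads a library, averaged 1.34 ± 0.84 and 3.83 ± 3.72 in offspring of starved and fed fathers (SD, n = 6 each, limma adjusted p = 0.885).

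The 10 receptor and co-receptor genes ran in mean value from 1.84 for fgfr1b, with 1 to 15 reads a library, to 166 for fgfr2, with 432 to 833 reads. The receptor gene fgfr2 was at 169 ± 22.2 in offspring of starved fathers and 163 ± 17.0 in offspring of fed fathers, and fgfr3, the next in level and named after its values were seen, at 104 ± 12.6 and 113 ± 18.3 (SD, n = 6 each). The fgfr2 log2 difference was 0.05, with a 95% interval from -0.24 to 0.33. None of the 10 receptor and co-receptor genes had an unadjusted p below 0.05, against 5.54% of all listed genes, a share at which so few genes may well hold none. The smallest p of this part was that of flrt2, a membrane protein gene of the Flrt family, at 19.1 ± 3.78 in offspring of starved fathers and 14.3 ± 3.38 in offspring of fed fathers (SD, n = 6 each, limma unadjusted p = 0.0834, adjusted p = 0.885).

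Of 26 genes of the cascade, 12 had a positive log2 difference and 14 a negative one, and 0 passed. At an unadjusted p below 0.05 with limma there were 4 of 26 (15.4%), against 5.54% of all listed genes. The adaptor gene grb2b, whose product links receptors to Ras activation, ran from 35.4 over a median of 44.2 to 52.3 in offspring of starved fathers, against 52.1 over 57.6 to 64.9 in offspring of fed fathers, so the ranges barely overlap. Its log2 difference was -0.39 ± 0.16 (SE, limma unadjusted p = 0.0246, adjusted p = 0.875). The gene was named for having the smallest p of the pathway genes with a negative difference. It was lower in offspring of starved fathers within 5 of 5 codes, but barely so in code 1118 (-0.03) and code 1219 (-0.08). How many of all listed genes were lower within every code was not counted. The Ras exchange factor gene sos1, the partner of Grb2, was at 6.76 ± 2.70 in offspring of starved fathers and 3.27 ± 1.38 in offspring of fed fathers (SD, n = 6 each). Its log2 difference was 0.85 ± 0.33 (SE, limma unadjusted p = 0.0188, adjusted p = 0.868). The receptor docking gene frs2b averaged 3.89 ± 0.67 and 7.81 ± 3.97, and the ERK-activating kinase gene map2k2b 1.19 ± 1.05 and 2.85 ± 1.04, starved before fed (SD, n = 6 each). Their limma unadjusted p was 0.0397 and 0.0283 in this order, and the adjusted p 0.885 for both. Both rest on few reads, at most 47 a library for frs2b and 12 for map2k2b, and so does sos1, at 5 to 36.

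Of 25 other feedback and target genes, 0 had an unadjusted p below 0.05 with limma, against 5.54% of all listed genes. The inhibitor gene spred2b, a relative of the Sprouty genes, was the most abundant at 54.7 ± 8.77 in offspring of starved fathers and 60.7 ± 11.6 in offspring of fed fathers (SD, n = 6 each). The gene cbl, for a ubiquitin ligase of activated receptors, had the smallest p, at 31.4 ± 7.58 and 23.2 ± 5.03 in the same order (limma unadjusted p = 0.0575, adjusted p = 0.885). The authors' deposited table gives an FDR below 0.05 to 1 of the 70 genes, and to 0.768% of all listed genes. The 1 gene is the immediate early gene ier2b (log2 fold change 1.22, FDR 0.0334), named here after its value was seen. Its library values were 67.7 and 43.2 in starved replicates 2 and 5. The remaining 4 starved-father libraries had 1.45 to 8.49 and the 6 fed-father libraries 0.86 to 17.6. These are the libraries with the highest dusp6 and fosab.

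By description code, 6 of the 70 pathway genes had an unadjusted p below 0.05 in the F test, a smaller share than the 11.9% of all listed genes. After adjustment 0 passed, against 1.12% of all listed genes, so the values below are given as a description only. The receptor-like gene fgfrl1a, whose product lacks the kinase domain, was at 16.7 and 17.5 in the code 1219 libraries of starved and fed fathers and at most 11.2 in the other 10 libraries (limma F test, unadjusted p = 0.00496, adjusted p = 0.167). The receptor gene fgfr1a was lowest in code 1210, at 17.8 and 15.4, and had 34.0 and 41.9 in code 1219, starved before fed (unadjusted p = 0.0257, adjusted p = 0.338). The gene fgf13a had the opposite order, with 4.40 and 3.92 in code 1219 and 13.7 and 26.6 in code 1210 (unadjusted p = 0.00564, adjusted p = 0.18). The other 3 were the immediate early genes egr1 (unadjusted p = 0.0107, adjusted p = 0.245), ier2b (unadjusted p = 0.0116, adjusted p = 0.255) and fosl1a (unadjusted p = 0.0391, adjusted p = 0.389). All 3 had their highest value in starved replicate 2, of code 1203, at 13.2 for egr1, 67.7 for ier2b and 46.9 for fosl1a. The fed library of that code, fed replicate 2, had only 2.71, 4.34 and 2.44 in the same order of genes. Between codes 1219 and 1210, egr1 did not follow etv5b, being listed at 0 in both code 1219 libraries, nor did fosl1a in fed fathers' offspring, at 0.30 in code 1219 and 11.7 in code 1210. The values of ier2b were 8.49 and 11.8 in code 1219 and 1.45 and 0.86 in code 1210. All 6 genes were named after their values were seen, and they were not tested together with etv5b.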

How the data were processed

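Reads of 3' tag libraries (QuantSeq, forward kit) went through STAR and edgeR on build GRCz11, per the submitters' processing notes. For the counter, strand use, row filter and scaling, the sources used here give no details. The deposited table of 13680 genes holds an expression signal per library: counts divided by a size factor, found from the values, since whole reads were recovered from 100% of values below 100 (within 0.1 of a whole read). The deposited log2 values are log2 fold changes of starved over fed, and the deposited FDR is an adjusted p-value, per the file headers. Library columns of other series were 0. Coordinates are those of the table.

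Columns were assigned to libraries by description code and to groups by title. The comparison used limma 3.58.1 in R 4.3.3 (moderated, variance trend) on log2(value + 1) over all genes without a block, Benjamini-Hochberg adjusted at 0.05, and the codes an F test with paternal group as a term. Steps between levels used exact sign flips, correlations 100000 permutations. Alternatives were edgeR 4.0.16, DESeq2 1.42.0 and limma-voom on recovered reads, pseudocounts of 0.5 and 5, a minimum mean of 5, other scaling and thresholds, blocks, and libraries left out. The fits were tested on simulated data. Named were all members; from the pathway list the 4 smallest p in each direction and the highest mean of each part; and for dusp6, spry4 and etv4 the 3 genes most alike. Named outside this rule were fgfr3, fgfr1b, ier2b and the pathway genes given by code. Members and lists were chosen with earlier results of these data known. Antisense or overlapping genes cannot be told apart where strand use is not stated.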

Additional observations from a re-analysis of the deposited data

How the results depend on the processing

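Under 25 other settings for the paternal groups, 0 of the 8 members and 0 of the 70 pathway genes were called, and the median log2 difference of the members ran from -0.13 to 0.02, around -0.05. For scale, the median over members of the centred log2 values had an SD of 0.15 over the 6 libraries of fed fathers. This is the spread of single libraries, and the error of a difference between group means is smaller. With each library left out in turn that median ran from -0.13 to 0.02. The directions of fgf8a (-0.88 to -0.24), spry2 (-0.57 to -0.29), etv4 (-0.15 to -0.04), etv5a (0.04 to 0.20) and dusp6 (0.05 to 0.40) held throughout, fgf8a not being tested at a mean value of at least 5. The smallest unadjusted p of any member was 0.0240, for spry2 without starved replicate 6, where adjusted p values of spry2 over all settings ran from 0.56 to 1.00. The spry4 difference reversed to 0.02 without code 1242. With a library left out, etv5b ran from -0.02 to 0.29 and il17rd from -0.14 to 0.15. The il17rd difference was -0.01 with edgeR and with replicates 5 and 6 averaged, -0.0044 with DESeq2, -0.03 without code 1242 and -0.10 without starved replicates 2 and 5, a choice added after seeing the data. The cause of these turns was not tested. In the main fit the differences of spry4 (-0.18 ± 0.19), etv5b (0.15 ± 0.25) and il17rd (0.01 ± 0.28) were each smaller than their error (SE).

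With the replicate block 39 of all listed genes were called in place of 0, and with the description code as a block 1, but 0 members or pathway genes. Same-numbered libraries of the groups correlated at 0.099 to 0.445 in their deviations from the group mean. Of the libraries of starved fathers, 6 of 6 correlated best with the fed library of their number. The labels also match these libraries, since those with the same number share a description code. Where a code has several libraries in a group, the last letter of their labels matches too. What a number or code marks is not stated, and the main fit, without a block, does not use this matching. The errors and intervals given for the members come from that fit. With the replicate block the limma unadjusted p of spry2 was 0.0575 (adjusted p = 0.56) and that of dusp6 0.138 (adjusted p = 0.69). For the codes, 0 members passed under 19 other settings, while the 153 calls over all genes became 84 at a mean value of at least 5, 99 without a group term, 66 without fed replicates 4 and 5, 99 without starved replicates 2 and 5, and 17 (without fed replicate 4) to 343 (without fed replicate 5) with a library left out. Of the other libraries, leaving out starved replicate 4 gave 28 calls, fed replicate 6 323, and starved replicate 1, starved replicate 2 and fed replicate 1 gave 97, 88 and 90. Depth limits fgf8a most, at 2 to 13 reads a library.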
